A study of Mus musculus with 6 samples.

Results

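Nuclear hormone receptors, the family of transcription factors that bind steroids, bile acids, oxysterols, fatty acids, retinoids and drugs, were followed in the liver of DUhTP marathon mice and DUC control mice. A list of 39 receptor genes was used, and a probe set was taken as a measurement of a receptor when that receptor was its sole gene symbol in the array annotation. In all, 36 of the 39 genes had such a probe set, 64 probe sets together, out of 22626 probe sets tested. Those with 1 gene symbol cover 12393 genes. Nr1h2, Nr2e3 and Nr3c2 had none and are not analysed here. The mice of both lines were males, 70 days old, and come from a non-inbred stock founded by crossing 4 outbred and 4 inbred strains. DUhTP was bred over many generations for long running on a treadmill, whereas DUC is the unselected control line. Each line was measured on 3 arrays (Affymetrix Mouse Genome 430A), which the sample labels describe as a mouse each and the study's methods as pools, so SDs and p values measure the spread between these arrays. Each line is a single breeding population, so effects of selection and of drift between the lines cannot be told apart.

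Most of these receptors sit on DNA as dimers or monomers and recruit coactivators or corepressors, and a bound ligand changes which of these partners is held. In hepatocytes they link the supply of metabolites to enzyme synthesis. FXR (Nr1h4) answers to bile acids and induces SHP (Nr0b2), a receptor without a DNA-binding domain that in turn represses Cyp7a1, the rate-limiting enzyme of bile acid synthesis. LXR alpha (Nr1h3) answers to oxysterols, PPAR alpha (Ppara) to fatty acids during fasting, and CAR (Nr1i3) and PXR (Nr1i2) to drugs and steroids. HNF4 alpha (Hnf4a) keeps up the hepatocyte program, and RXR (Rxra, Rxrb, Rxrg) is the common dimer partner of many of the others.

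The DNA before the start of 2 receptor genes is printed, that of Nr0b2, which was called higher in DUhTP arrays, and that of Hnf4a. The means of Hnf4a were lower in DUhTP arrays on all 4 of its probe sets, but none was called in the comparison used throughout. Sequences are those of RefSeq on GRCm38.p6 and end at the base before an annotated transcription start. The 250 bases before Nr0b2 lie at chr4:133553126-133553375 on the plus strand, and capitals mark TCAAGG, the core recognised by NR5A receptors such as LRH-1 (Nr5a2). Hnf4a has 2 annotated starts in this table, and the window shown lies at chr2:163546905-163547154 on the plus strand, before the downstream start and inside the span of the gene, with nothing to mark. The genes themselves span chr4:133553376-133556686 (Nr0b2) and chr2:163506811-163572907 (Hnf4a).
Nr0b2: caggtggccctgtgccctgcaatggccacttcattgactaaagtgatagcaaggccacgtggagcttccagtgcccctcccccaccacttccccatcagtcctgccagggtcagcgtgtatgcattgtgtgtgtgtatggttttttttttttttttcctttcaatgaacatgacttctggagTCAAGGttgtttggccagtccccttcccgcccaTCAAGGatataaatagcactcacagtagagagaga
Hnf4a: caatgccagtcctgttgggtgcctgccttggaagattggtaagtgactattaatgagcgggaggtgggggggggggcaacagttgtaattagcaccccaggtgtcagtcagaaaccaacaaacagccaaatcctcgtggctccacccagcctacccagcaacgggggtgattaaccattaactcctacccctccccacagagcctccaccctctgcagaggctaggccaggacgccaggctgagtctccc
The letters TCAAGG begin 68 and 35 bases before the Nr0b2 start, both on the plus strand. Windows of all genes were searched on both strands for TCAAGG and for AGGTCA, the half-site of most receptors, with overlapping matches counted. TCAAGG was found in 12.5% of 32851 windows and in 5 of the 52 windows of the receptors, which cover 35 genes. Nr0b2 was the receptor gene with a pair of matches in 1 window, and 0.922% of all windows held 2 or more. AGGTCA was found in 9 of the 52 receptor windows (17.3%) against 14.0% of all windows. Both Hnf4a windows held neither motif.

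The median intensity was between 53.1 and 57.0 on all 6 arrays, in the arbitrary linear units of PLIER, and all intensities were above 0. All 7 hepatocyte markers tested (Alb, Ttr, Apoa1, Serpina1c, Tat, Cps1 and Ahsg) were among the top 25% of probe sets on each array. They summed to 78441 to 80243 in DUhTP and to 83202 to 86363 in DUC arrays, with Tat called lower. Log2 fold changes were -0.88 for Tat, -0.33 for Cps1, -0.11 for Ahsg and -0.034 for Alb. They were 0.098 for Serpina1c, 0.065 for Ttr and 0.00084 for Apoa1, so the markers did not move together. Summed signals of Kupffer cell, endothelial and exocrine pancreas markers did not overlap between the lines either. The 7 Kupffer cell and macrophage markers summed to 2909 to 3702 in DUhTP arrays against 2056 to 2867 in DUC, the 7 endothelial markers to 2925 to 3410 against 2632 to 2791, and the 6 measured exocrine pancreas markers to 942 to 3364 against 3624 to 6817. Of these 20 marker genes 1 was called higher, the Kupffer cell marker Clec4f, and none of them was listed at 0. The means of the Kupffer cell marker Marco and the endothelial marker Lyve1 were lower in DUhTP arrays (log2 fold changes of -0.60 and -0.55) and neither was called. The 7 hepatic stellate cell markers summed to 2105 to 2826 in DUhTP against 2389 to 2645 in DUC arrays, with Col3a1 called higher (limma, adjusted p = 0.0434). By marker, log2 fold changes were 0.93 for Col3a1, 0.18 for Reln, 0.024 for Des and 0.0013 for Col1a1. Those of Lrat, Rgs5 and Dcn were -0.43, -0.27 and -0.13, and only Col3a1 was called. The stellate sums overlapped between the lines, as did those of cholangiocyte, lymphocyte and adipocyte markers. The part of other cell types in the receptor values was not tested. In bulk tissue, fewer cells of a type and less RNA per cell cannot be told apart.

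Most receptors with a bright signal in liver were those of bile acid, sterol, fatty acid and drug metabolism and their partners. A receptor was counted as bright when at least 1 of its probe sets lay among the top 25% of all tested probe sets on each of the 6 arrays, which held for 10 of the 36 measured genes: Hnf4a, Ppara, Nr1i3, Rxra, Nr1h4, Nr0b2, Nr5a2, Nr1h3, Nr2f6 and Rxrb. This share, 27.8% of the measured receptors, is near the 25.1% found over all genes and is no result about them as a group. A further 12 genes had all their probe sets among the lower 50% on each array: Nr2c2, Nr2f1, Nr4a3, Nr5a1, Ppard, Pparg, Rara, Rarb, Esr1, Esrrb, Vdr and Hnf4g. The other 14 lay between. Probe sets bind with unequal strength, so these are ranks of signal and not of transcript number. Relatives within a family could fall into different classes. Ppara lay at percentiles 94.5 to 95.8 over the 6 arrays whereas Ppard lay at 4.71 to 10.98 and Pparg at 24.4 to 44.3. Hnf4a reached percentiles 97.6 to 98.6 on 1427001_s_at, and the intestinal form Hnf4g stayed at 8.06 to 24.5 on its brighter probe set. LRH-1 (Nr5a2) lay at 86.6 to 88.1 on 1449706_s_at, against 19.8 to 30.3 for the adrenal and gonadal form SF-1 (Nr5a1).

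**Figure D1:**
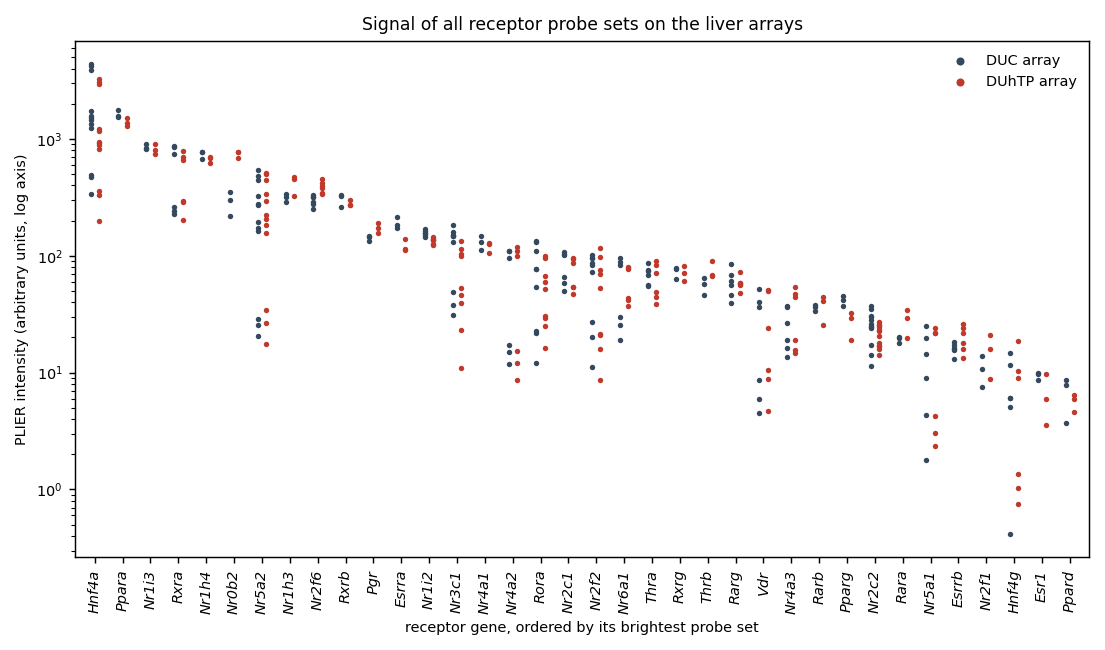
PLIER intensity (arbitrary units, log axis) of all 64 receptor probe sets on the 3 DUC and 3 DUhTP arrays, with genes ordered by their brightest probe set. Points of Hnf4a reach up to 4356, and the points of Nr0b2 fall into separate groups by line.

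Between the lines, SHP (Nr0b2) was higher in DUhTP liver and was the only receptor called. With limma on log2 intensities and p adjusted by the Benjamini-Hochberg method over all 22626 probe sets, 1 of the 64 receptor probe sets had an adjusted p under 0.05, against 2.41% of all probe sets. By gene, 1 receptor was higher and 0 lower, against 1.92% of all genes higher, 1.4% lower and 3.32% in either direction. A constant of 16 was also added to all intensities ahead of the log, which damps the noise of dim probe sets, and 6 of the 64 were then called, against 8.62% of all. These were Nr0b2, Nr2f6 (EAR2) and a dim probe set of Nr6a1 (GCNF), higher, and Esrra (ERR alpha) and 2 probe sets of Hnf4a, lower. The 3 genes higher stand beside 5.31% of all genes, the 2 lower beside 6.0%, and the 5 together beside 11.3%. limma-trend also called 6 probe sets, with 1 more of Hnf4a in place of the one of Nr6a1, against 10.4% of all. The shares of receptors called are near those of all probe sets, so they are no result about the receptors as a group.

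The same held for other counts. An unadjusted p under 0.05 was found for 13 of the 64 receptor probe sets (20.3%), 4 higher and 9 lower, and for 21.1% of all. The lines did not overlap on 22 of the 64 (34.4%), against 29.4% of all probe sets. Log2 fold changes were above 0 on 26 and below 0 on 38, from -1.20 for Hnf4g, on a probe set near the lowest signals of the array, to 1.38 for Nr0b2. Their median was -0.11, against -0.017 over all probe sets. For 43 of the 64, and for 14 of the 16 bright ones, the 95% interval of the difference lay within 1 log2 unit on either side of 0.

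**Figure D2:**
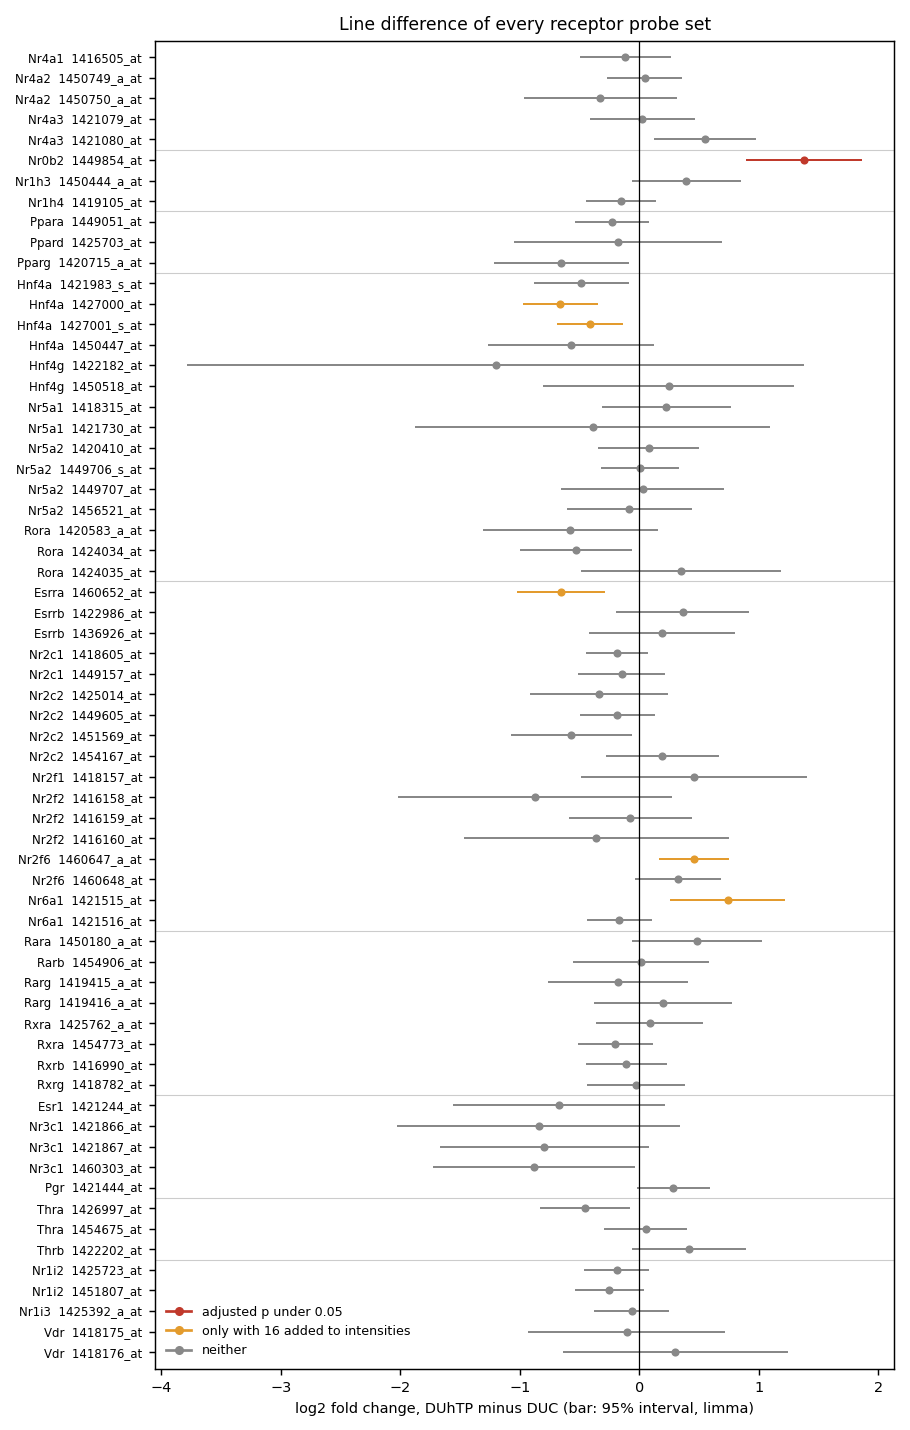
Log2 fold change (DUhTP minus DUC) of each receptor probe set with its 95% interval from limma, grouped by role. Nr0b2 at 1.38 is the single red point, called in the comparison used throughout, and the orange points of Hnf4a, Esrra, Nr2f6 and Nr6a1 were not called in it and were called with 16 added.

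Of the bile acid and sterol receptors, SHP rose while FXR and LXR alpha were not called. The intensity of Nr0b2 was 768, 679 and 766 on the DUhTP arrays and 219, 349 and 299 on the DUC arrays. Each DUhTP array was above each DUC array. Means were 738 ± 50.6 against 289 ± 65.7 (SD, n = 3 per line), an FC of 2.60 with a log2 fold change of 1.38 ± 0.19 (SE; limma, adjusted p = 0.0325, and 0.00113 with 16 added). The call depended on all 6 arrays: without any 1 of them the adjusted p of limma was 0.0708 to 0.135, and with 16 added it was 0.00214 to 0.00944. The window before this gene is the one printed with its TCAAGG pair. Nr5a2 (LRH-1), a receptor of that sequence and described with the hepatocyte factors, was not called.

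FXR (Nr1h4), which induces SHP, had intensities of 680.0, 622 and 695 in DUhTP and 778, 770.0 and 675 in DUC liver. The lines overlapped, with a log2 fold change of -0.15 and a 95% interval of -0.44 to 0.13 (limma, adjusted p = 0.502). LXR alpha (Nr1h3) was at 472, 457 and 325 on the DUhTP arrays and at 317, 340.1 and 286 on the DUC arrays. Of these, DUhTP 1 and 2 were above the DUC range and DUhTP 3 was within it, and the log2 fold change of 0.40 was not called (limma, adjusted p = 0.282, and 0.162 with 16 added). With 16 added, Nr1h3 was called higher when DUhTP 3 was left out (limma, adjusted p = 0.0377). It was not called when any other array was left out (0.238 to 0.385).

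**Figure D3:**
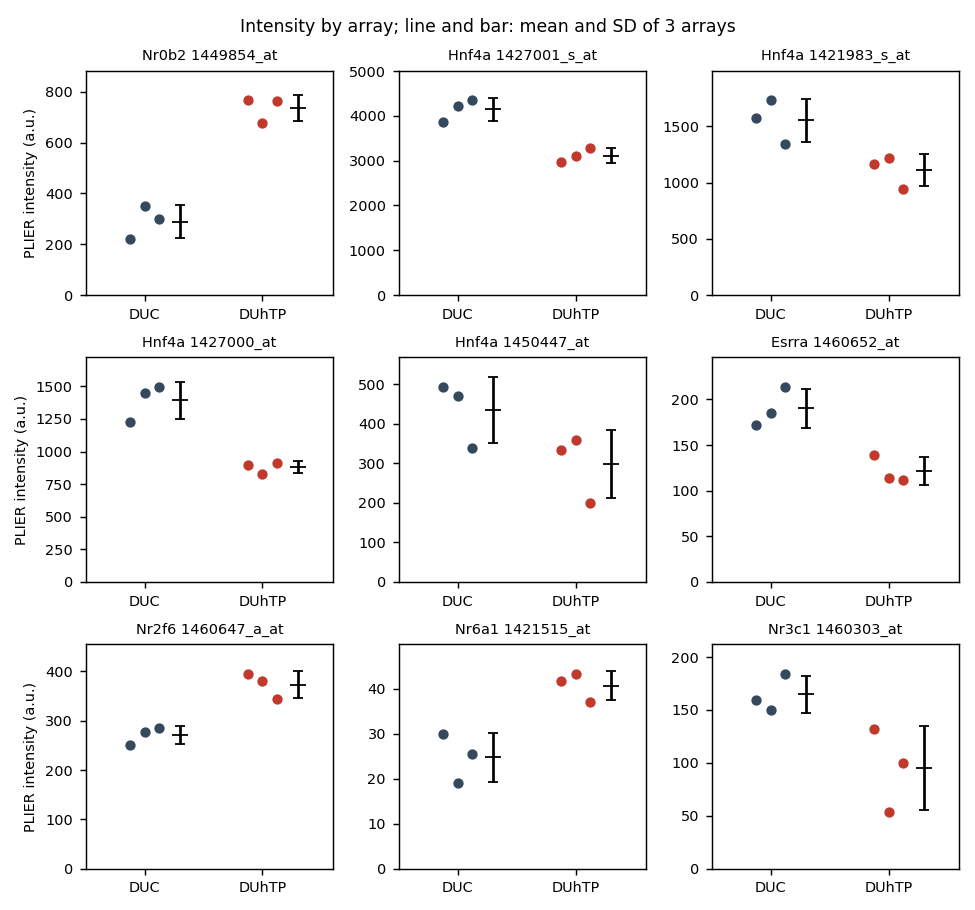
PLIER intensity (arbitrary units, axes from 0) on each array for Nr0b2, the 4 probe sets of Hnf4a, Esrra, and 1 probe set each of Nr2f6 (1460647_a_at), Nr6a1 (1421515_at) and Nr3c1 (1460303_at), with the mean and SD of 3 arrays per line. Of the 9 probe sets drawn, the lines overlap on Hnf4a 1450447_at alone, and the DUhTP arrays of Nr3c1 1460303_at spread from 53.3 to 132.

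HNF4 alpha had lower means in DUhTP mice on all 4 of its probe sets, and none of them was called in the comparison used throughout. Of the 4, 2 were called with 16 added and with the dimmest 33.33% of probe sets left out, and 3 with limma-trend. On 1427000_at the intensity was 895, 826 and 913 in DUhTP and 1229, 1449 and 1497 in DUC arrays, 878 ± 46.01 against 1392 ± 143 (mean ± SD, n = 3 per line). The FC was -1.58 and the log2 fold change -0.66 ± 0.12 (SE; limma, adjusted p = 0.05896, 0.00948 with 16 added and 0.00195 with limma-trend). With 16 added this call was lost when DUC 2 or DUC 3 was left out (adjusted p = 0.0535 and 0.0542). The brightest probe set, 1427001_s_at, read 2966, 3093 and 3284 against 3859, 4222 and 4356. Again no DUhTP array reached the DUC range, and the log2 fold change was -0.41 (limma, adjusted p = 0.116, 0.0467 with 16 added and 0.00782 with limma-trend). With 16 added this call was lost whichever array was left out (adjusted p = 0.0585 to 0.159). On 1421983_s_at the values were 1167, 1216 and 947 in DUhTP and 1574, 1735 and 1346 in DUC, a difference of -0.48 on the log2 scale (adjusted p = 0.166, 0.0304 with limma-trend). On the dimmer 1450447_at they were 334, 359.8 and 199 against 493, 471 and 339, and here the lines overlapped (-0.57, adjusted p = 0.308). These probe sets carry the symbol of 1 gene and were read on the same 6 arrays, so they are not independent measurements. Of the 4, 1427001_s_at and 1421983_s_at are of the kind that may read more than 1 transcript.

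LRH-1 (Nr5a2), which acts as a monomer in bile acid and cholesterol genes, had log2 fold changes near 0 on its 4 probe sets. Intensities on its brightest, 1449706_s_at, were 515, 449 and 501 in DUhTP and 440.4, 542 and 479 in DUC mice, a log2 fold change of 0.0061 with a 95% interval of -0.31 to 0.32. Its other bright probe set in all 6 arrays, 1456521_at, read 341, 207 and 292 against 269, 325 and 279. The 4 log2 fold changes ran from -0.083 to 0.079. ROR alpha (Rora), a monomeric receptor of clock and lipid genes, had negative log2 fold changes on its brighter probe sets 1424034_at (-0.53, 95.8, 67.6 and 98.8 against 111, 133 and 131, adjusted p = 0.187) and 1420583_a_at (-0.58), and one of 0.35 on a dim probe set, none of them called. SF-1 (Nr5a1) and HNF4 gamma (Hnf4g) were dim, with log2 fold changes of opposite sign on the 2 probe sets of each.

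PPAR alpha, the bright member of the fatty acid receptors, differed little between the lines. Ppara read 1514, 1358 and 1295 in DUhTP and 1564, 1782 and 1539 in DUC liver. The arrays did not overlap, since the highest DUhTP value lay just under the lowest DUC value, and the log2 fold change was -0.23 with a 95% interval of -0.53 to 0.07 (limma, adjusted p = 0.346). PPAR gamma (Pparg), the adipocyte form, was dim at 19.04, 29.1 and 32.5 against 45.1, 36.9 and 41.9, a difference of -0.65 on the log2 scale (adjusted p = 0.182). The 3 measured adipocyte markers summed to 141 to 162 in DUhTP and to 156 to 169 in DUC arrays, and their part in the Pparg value was not tested. PPAR delta (Ppard) stayed under 9 on each array.

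The drug receptors CAR and PXR had small differences, with means lower in DUhTP mice and no call. CAR (Nr1i3) had intensities of 912, 804 and 743 in DUhTP and 902, 842 and 819.8 in DUC mice, which overlap, with a log2 fold change of -0.065 and a 95% interval of -0.37 to 0.24 (limma, adjusted p = 0.811). PXR (Nr1i2) was at 144, 136 and 137 against 158, 169 and 149 on 1425723_at, and its log2 fold changes were -0.19 and -0.25 on its 2 probe sets. On both, each DUhTP array lay below each DUC array, and neither was called (adjusted p = 0.363 and 0.277). The vitamin D receptor (Vdr), known from non-parenchymal cells of the liver, was dim on both of its probe sets (-0.11 and 0.30).

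Among the retinoid receptors RXR alpha and RXR beta were bright and none was called. Rxra read 703, 783 and 657 in DUhTP and 749, 847 and 866 in DUC mice on its brighter probe set 1454773_at (-0.20, 95% interval -0.51 to 0.10). On 1425762_a_at it read 289.5, 295 and 204 against 263, 241 and 229 (0.087), so the sign was not the same on both. For Rxrb the values were 274, 299 and 272 in DUhTP and 260.4, 322 and 331 in DUC mice, overlapping, and differed by -0.11 on the log2 scale (adjusted p = 0.705). Rxrg, the muscle and brain form, lay in the middle of the array at -0.027. The retinoic acid receptors Rara, Rarb and Rarg had log2 fold changes from -0.18 to 0.48, the latter for Rara on a dim probe set with overlapping lines (adjusted p = 0.277).

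Neither thyroid hormone receptor was called. Thra had a log2 fold change of -0.45 on 1426997_at (38.6, 48.5 and 44.6 against 68.8, 55.3 and 56.2, adjusted p = 0.167) and of 0.053 on the brighter 1454675_at, so its probe sets disagreed. Thrb, the main form of liver, read 68.5, 89.7 and 66.7 in DUhTP and 64.8, 57.8 and 45.8 in DUC mice. Each DUhTP value was above each DUC value, and the log2 fold change of 0.42 had a 95% interval of -0.05 to 0.89 (limma, adjusted p = 0.2804).

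The glucocorticoid receptor (Nr3c1), which induces gluconeogenic genes under corticosterone, had lower means in DUhTP mice on all 3 probe sets and a wide spread. On its brightest, 1460303_at, the intensity was 132, 53.3 and 99.9 in DUhTP and 159.5, 150.4 and 184 in DUC arrays. DUhTP 2 was the lowest array on each of the 3 probe sets. Log2 fold changes were -0.88, -0.84 and -0.79, with adjusted p = 0.218, 0.374 and 0.2699 (limma). With 16 added, 1421866_at and 1460303_at were called lower when DUhTP 1 was left out. DUhTP 2 was also the lowest array on all 3 probe sets of COUP-TFII (Nr2f2) and on 2 of the 3 of Rora. That array had the lowest sum of exocrine pancreas markers (942) and the highest of Kupffer markers (3702), and also the lowest sums of stellate (2105) and cholangiocyte markers (114) and the lowest median intensity (53.1). Their part in these values was not tested.

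The progesterone receptor (Pgr), best known from reproductive tissues, gave a signal at percentiles 68.8 to 75.2 of the arrays. Pgr read 173, 156 and 189 in DUhTP and 134, 147 and 144 in DUC mice. The lines did not overlap, but the log2 fold change was only 0.29 and was not called (95% interval -0.01 to 0.58, limma, adjusted p = 0.2495). Whether this probe set reads Pgr transcripts or other RNA was not tested. The estrogen receptor Esr1, known to be expressed in mouse hepatocytes, stayed under 10 on each array, at percentiles 4.41 to 13.6 (-0.67, 95% interval -1.55 to 0.21).

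The Nr4a receptors, immediate early genes of fasting and stress signals, were not called. Nr4a1 (NUR77) read 128, 125 and 106 against 147, 112 and 131 (-0.12) and Nr4a2 (NURR1) had log2 fold changes of 0.045 and -0.32. Nr4a3 (NOR1) had higher values in each DUhTP array than in any DUC array on the dim 1421080_at (47.1, 44.7 and 53.6 against 26.7, 37.3 and 36.2, 0.55, adjusted p = 0.154). Its other probe set was at 0.027.

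Of the orphan receptors, ERR alpha and EAR2 were not called in the comparison used throughout, and both were called with 16 added, with the dimmest 33.33% left out and with limma-trend, ERR alpha lower and EAR2 higher in DUhTP mice. Esrra, which drives mitochondrial genes together with the PGC-1 coactivators, read 139, 114 and 111 in DUhTP and 173, 185 and 214 in DUC mice. The lines did not overlap and the means were 121 ± 15.04 against 190.4 ± 21.3 (SD, n = 3 per line), an FC of -1.57 (-0.65 ± 0.15, SE; limma, adjusted p = 0.0839, 0.0211 with 16 added, 0.0156 with limma-trend). With 16 added its call was made in 3 of the 6 fits that left out an array. EAR2 (Nr2f6), a relative of the COUP factors and usually a repressor, read 395, 381 and 343 against 251, 277 and 286 on 1460647_a_at, 0.46 ± 0.12 (SE; adjusted p = 0.107, 0.0416 with 16 added). Its second probe set, 1460648_at, read 457, 422 and 339 against 330.1, 318 and 319 (0.32, adjusted p = 0.269), also without overlap. With 16 added, the call of 1460647_a_at was kept in 1 of the 6 fits that left out an array.

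GCNF (Nr6a1), a receptor of germ cells, gave opposite signs on its probe sets. On the dim 1421515_at the intensity was 41.7, 43.4 and 37.1 in DUhTP and 29.9, 19.00 and 25.4 in DUC arrays (0.74 ± 0.19, SE; limma, adjusted p = 0.112, 0.0455 with 16 added, 0.0608 with limma-trend). With 16 added this call was lost whichever array was left out (adjusted p = 0.0564 to 0.1698). On the brighter 1421516_at it was 77.02, 79.2 and 80.9 against 94.9, 82.6 and 89.1 (-0.17, adjusted p = 0.427), so no direction can be given for the gene. TR2 (Nr2c1) was at -0.19 and -0.15, and the 4 dim probe sets of TR4 (Nr2c2) ran from -0.57 to 0.19. COUP-TFII (Nr2f2) ran from -0.87 to -0.074 on 3 probe sets, all with overlapping lines. COUP-TFI (Nr2f1) and ERR beta (Esrrb) were dim in both lines, at 0.46 and at 0.19 to 0.36.

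Genes known as targets of these receptors were counted in lists written from textbook knowledge. LXR alpha and RAR beta, members of the receptor list, also stand among the targets of LXR and of retinoic acid. SHP (Nr0b2), itself induced by FXR and called higher, was not put in the list of bile acid genes. Over all genes 1.92% were higher and 1.4% lower and the median log2 fold change of the brightest probe sets was 0.0011. An unadjusted p under 0.05 in limma was found for 21.1% of all probe sets, in either direction. The share of all genes with such a probe set was not computed. Counts of genes at an unadjusted p are therefore no result about a list. Of 14 measured bile acid genes, which FXR and SHP govern, 0 were higher and 1 lower in limma (median -0.095), or 2 and 4 at an unadjusted p under 0.05. The 1 was Cyp7a1, at 283, 136 and 251 in DUhTP and 1190.3, 865 and 938 in DUC mice, an FC of -4.64 (limma, adjusted p = 0.03202). Each DUhTP array was below each DUC array, and a link to the higher Nr0b2 was not tested. The bile acid transporter Slc10a1 and the ligase Slc27a5 were at -0.13 and 0.077. Of 13 LXR targets, 1 was higher, the lipogenic factor Srebf1 (FC 2.98), and 1 lower, the lipase Lpl (FC -3.52), with a median of -0.10. Scd1 and Lpcat3, the brightest of the other LXR targets, were not called.

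Of 19 PPAR alpha targets, 4 were lower and 0 higher in limma (median -0.22), or 7 and 0 at an unadjusted p under 0.05. The 4 called were Cyp4a14 (FC -6.41), a fatty acid hydroxylase, Cpt1a (FC -1.89), the gate of mitochondrial fatty acid oxidation, Ehhadh (FC -1.79) and Acot1 (FC -1.72). Fabp1 and Acaa1b, the brightest of the others, were at 0.25 and 0.027. CAR and PXR targets went both ways, with 4 of 17 higher and 3 lower (median -0.058). Cyp2b9 rose with an FC of 17.6, Gstm3 of 2.63 and Cyp2c55 of 2.36. Sult1d1 was called lower on 1418138_at (FC -4.80, limma, adjusted p = 0.02104). On its brighter 1448973_at it was also lower but not called (-1.69, adjusted p = 0.0743). The others, named after their values were seen, were Cyp3a13 (FC 2.55), higher, and Slco1a4 (FC -3.64) and Alas1 on its dimmer probe set 1455282_x_at (FC -2.59), lower. Cyp3a11, the typical PXR target, was at -0.096.

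Glucocorticoid receptor targets had the lowest median of the lists, -0.65, with 5 of 16 lower and 0 higher in limma, or 9 and 1 at an unadjusted p under 0.05. They include Gadd45b (FC -4.39), Igfbp1 (FC -4.12), the co-chaperone Fkbp5 (FC -2.94) and the gluconeogenic Pck1 (FC -1.73), while Mt1 was at -0.0023. The fifth was Tat (FC -1.84), which is also the 1 of 13 HNF4 alpha targets called lower. Of these 13, 0 were called higher, with a median of 0.065. At an unadjusted p under 0.05 in limma 3 of them were higher and 2 lower. The HNF4 alpha targets Apoa1 and Apoa2 were at 0.00084 and -0.014. Thyroid hormone targets had 2 of 8 lower, Klf9 (FC -2.20) and Cpt1a, and 0 higher (2 with 16 added, median -0.15). Retinoid genes had 1 of 11 higher, Tgm2 (FC 1.72 on its brightest probe set), and 0 lower (median 0.014). Targets of ROR and REV-ERB had 1 of 10 higher, Nfil3 (FC 1.81), and likewise 0 lower (median 0.15). At an unadjusted p under 0.05 in limma both lists had 3 higher and 0 lower. The brightest uncalled genes were Me1 and Thrsp for thyroid hormone and Rbp4 and Dhrs3 for retinoids. For ROR and REV-ERB they were Ugt2b5 and Cyp7b1.

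The coactivators and corepressors of the receptors that were called were lower in DUhTP mice. Of 18 coactivators and corepressors, 2 were lower and 0 higher in limma, against 1.4% of all genes lower and 1.92% higher. Their median was -0.28, and at an unadjusted p under 0.05 in limma 6 were lower and 0 higher. The 2 called were Ppargc1b (PGC-1 beta) and Ppargc1a (PGC-1 alpha). Ppargc1b read 63.1, 62.3 and 81.4 against 148, 159 and 178 (FC -2.36, limma, adjusted p = 0.0263). Ppargc1a, on a dim probe set, read 20.7, 14.7 and 22.4 against 42.6, 49.8 and 37.95 (FC -2.28, limma, adjusted p = 0.0499). Both coactivate ERR alpha and PPAR alpha, and in both each DUhTP array was below each DUC array. Ncoa4 missed the threshold with an FC of -1.84 (adjusted p = 0.0515). Of 6 further receptor genes outside the list of 39, 1 was lower: REV-ERB beta (Nr1d2), a clock repressor, at 134, 157 and 166 in DUhTP and 298, 426 and 372 in DUC mice (FC -2.38, adjusted p = 0.0319). Its relative Nr1d1 had an FC of -1.79 and was not called (adjusted p = 0.161). Of 20 immediate early genes usually induced along with the Nr4a receptors, 1 was higher, Egr2, on a probe set under 6 on each array (adjusted p = 0.0408, 0.0797 with 16 added), and 0 lower (7 at an unadjusted p under 0.05, median -0.20). With 16 added 0 were higher and 3 lower, Fosl1, Jund and Myc, which are named after their values were seen (adjusted p = 0.0263, 0.0438 and 0.0253). In all, 26 listed genes were called, and between 0 and 8 when any 1 array was left out. Over all genes 3.32% were called. Some genes stand in more than 1 list, and the share of listed genes called was not computed. The count of 26 is therefore no result about the listed genes.

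**Figure D4:**
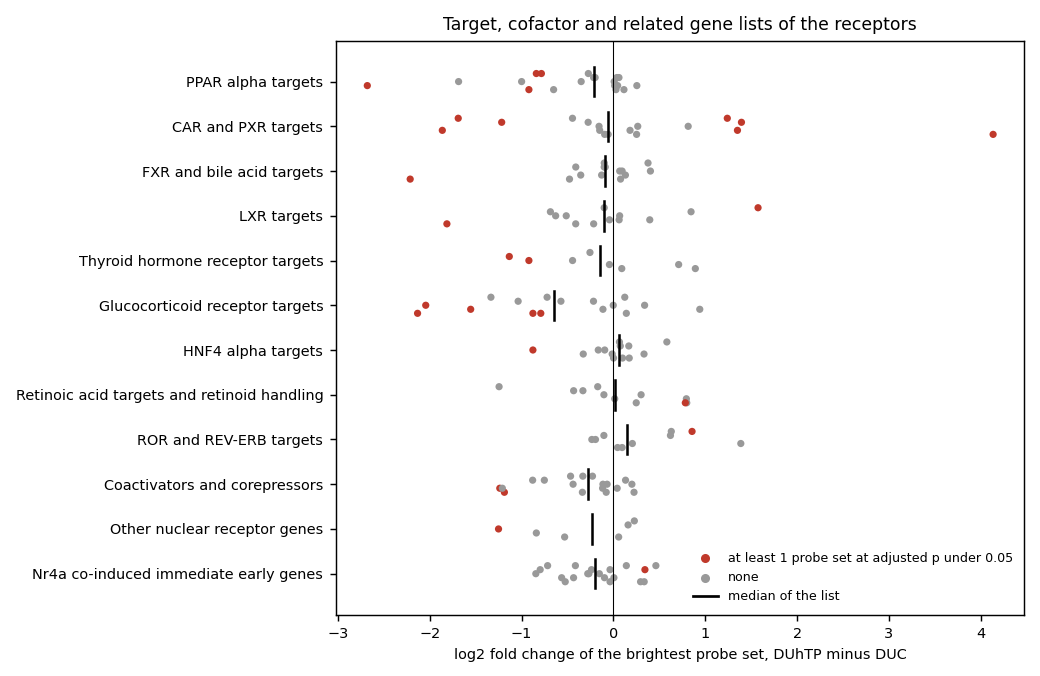
Log2 fold change (DUhTP minus DUC) of the brightest probe set of each gene in 12 lists of receptor targets, cofactors and related genes. Red points are genes with at least 1 called probe set, and the black line of each list is its median, lowest at -0.65 for the glucocorticoid receptor targets.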

How the data were processed

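Liver RNA of 3 DUhTP and 3 DUC samples was measured on Affymetrix Mouse Genome 430A arrays. Global scaling was done by the authors in GCOS (version 1.1.1 per the submitters' processing notes) before PLIER estimation, and the deposited values are PLIER intensities on a linear scale. The PLIER version and any added constant are not given in the sources used here. After 64 control probe sets were left out of 22690, intensities were logged to base 2 without a constant and DUhTP was compared with DUC in limma 3.58.1 (R 4.3.3) with lmFit and eBayes, adjusting p by the Benjamini-Hochberg method over 22626 probe sets. All per-sample columns were used. A gene is represented by its brightest probe set unless another is named. Groups came from the strain label.

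Receptors, target lists and markers were chosen with earlier results of these data known. All measured receptors were named, with full values for those called, at an unadjusted p under 0.01 or bright. From each target list up to 4 called genes, by smallest p, were named, with up to 2 of the brightest uncalled ones. Not all of the uncalled ones are given with values. Alternatives were 16 added, quantile normalization, the dimmest 33.33% left out, limma-trend, array weights, a replicate block, no probe sets that may read more than 1 transcript, each array left out in turn, an FC over 2, and the brightest probe set alone. Leaving out arrays with 16 added was chosen after seeing the data. The fit was tested on simulated data. Windows before transcription starts were those of RefSeq on GRCm38.p6, which held 35 of the 39 receptor genes by symbol. The number of arrays limits the precision. Measurements by qRT-PCR and of serum were not used here.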

Additional observations from a re-analysis of the deposited data

How the results depend on the processing

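With 3 arrays per line, calls without an added constant were sensitive to single arrays: without any 1 array 0 receptor probe sets were called (0 higher, and 0 genes higher), 1 to 122 of all probe sets in place of 546, and 0 to 8 listed genes in place of 26. With 16 added, the receptor probe sets called without any 1 array numbered 1 to 5, the receptor genes higher 1 to 3 and lower 0 to 3, and all probe sets 771 to 1591, and Nr0b2 was called in each of these fits. With 16 added and with the dimmest probe sets left out, 6 receptor probe sets were called, 3 higher and 3 lower, or 3 genes higher and 2 lower, beside 1951 and 1851 of all probe sets and 50 and 47 listed genes. limma-trend called 6, of which 2 higher and 4 lower, or 2 genes in each direction, beside 2350 of all and 57 listed genes. Shares of the listed genes were not computed, so their counts are no result about the lists. An FC over 2 as well left Nr0b2 and 327 of all probe sets. Quantile normalization and array weights called Nr0b2 alone, and 10 receptors stayed bright except for 12 when the top 33.33% counted. With the replicate number as a replicate block, 0 receptor probe sets, 0 receptor genes, 0 of all probe sets and 0 listed genes were called (Nr0b2 adjusted p = 0.139 in limma). Deviations from the line means correlated at 0.00341, 0.00480 and 0.0667 between DUhTP and DUC arrays of the same number. Between arrays of different number they correlated at -0.0335 to 0.0281. All of these were near 0, and a pairing by number was not assumed. Of 809 single values for receptor probe sets, 33 on 17 probe sets changed sign, none of them called, and no called value did. Their log2 fold changes without any 1 array ran over these ranges: Nr2f2 (1416159_at) -0.24 to 0.13, Vdr (1418175_at) -0.29 to 0.25, Rxrg (1418782_at) -0.13 to 0.086, Rarg (1419415_a_at) -0.42 to 0.025, Nr4a3 (1421079_at) -0.097 to 0.14, Nr5a1 (1421730_at) -0.998 to 0.18, Nr1i3 (1425392_a_at) -0.14 to 0.0035, Ppard (1425703_at) -0.56 to 0.052, Rxra (1425762_a_at) -0.00633 to 0.26, Hnf4g (1450518_at) -0.13 to 0.52, Nr4a2 (1450749_a_at) -0.021 to 0.11, Thra (1454675_at) -0.017 to 0.14 and Rarb (1454906_at) -0.13 to 0.26. For Nr5a2 they were -0.058 to 0.20 (1420410_at), -0.064 to 0.086 (1449706_s_at), -0.19 to 0.29 (1449707_at) and -0.24 to 0.12 (1456521_at). With array weights Nr2f2 (1416159_at) was at 0.031 and Nr5a2 (1456521_at) at 0.0055, and with quantile normalization Rxrg was at 0.019. The cause was not tested. Dim probe sets limit what can be said of receptors such as Esr1, Hnf4g and Ppard.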
